A study of Mus musculus with 24 samples.

Results

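The genes described here encode the subunits, activators and assembly chaperones of the proteasome, and their transcripts were counted in the granulosa cells and the oocytes of mouse follicles grown in culture. Members were the rows of the granulosa cell and oocyte count tables whose symbol is Psm, a letter from a to g, a number and at most 1 further letter, and whose mean reached 1 CPM (counts scaled to 1000000 per library) in at least 1 of the tables. This gave 49 of 78298 genes, of which 19 belong to the core (Psma and Psmb), 20 to the cap (Psmc and Psmd) and 10 to the activators and core chaperones (Psme, Psmf and Psmg). Of these, 48 reached that mean in granulosa cells and 46 in oocytes. After the filter on low counts, 48 members were tested within granulosa cells (all but Psmb11), 46 within oocytes (all but Psma8, Psmb8 and Psmb9) and 49 between the cell types.

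Wild-type follicles, as primary tissue, were held in alginate gel and sampled on day 3 of culture. Every group received serum, insulin, transferrin, selenium and 50 mIU/ml of FSH, the pituitary hormone that drives follicle growth. Control follicles had no further agent named (a solvent is not given in the labels), the blebbistatin group had 20 µM of this inhibitor of nonmuscle myosin II, and the dextran group had this polymer in the medium at a labelled 10 kPa. Only follicles that had passed 180 µm were taken, so all groups hold follicles that grew. An oocyte library pools 1 to 2 oocytes and a granulosa library a far larger number of granulosa cells, and all cDNA went through 15 rounds of amplification. Each of the 6 groups, 3 treatments in 2 cell types, has 4 libraries, 24 in all. The labels speak of biological replicates but name no animal, strain or age, so a p-value here sets a difference against the spread of 4 libraries a group, and some of that spread may be technical.

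As background, the proteasome degrades proteins that carry ubiquitin chains. Its core is a barrel of alpha and beta rings with the catalytic beta subunits Psmb5, Psmb6 and Psmb7 inside, and its cap has a base, whose ATPase ring Psmc1 to Psmc6 unfolds substrates, and a lid, where Psmd14 removes ubiquitin. In cells exposed to interferon the catalytic subunits can be replaced by Psmb8, Psmb9 and Psmb10, which form the immunoproteasome. Other complexes can take the place of the cap, namely PA28 alpha and beta (Psme1 and Psme2), PA28 gamma (Psme3) and PA200 (Psme4). Growing oocytes store RNA and protein for meiosis and the early embryo, and protein degradation drives the meiotic divisions.

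Transcription of proteasome genes can be raised by NFE2L1, which binds antioxidant response elements, and immunoproteasome and PA28 genes answer to interferon. The region from 250 bases before to 50 bases after the gene start was therefore searched on both strands for the element letters TGACNNNGC and for an interferon-response type motif, GAAA with any 2 bases and GAAA again, called ISRE below; N is any base, and matches may overlap other motifs. Promoters were found for 41 of the 49 members in the RefSeq table of build GRCm38.p6. TGACNNNGC occurred in 6 of these 41 genes (14.6%) and in 12.4% of all 32851 promoters, and the ISRE in 5 of 41 (12.2%) and in 3.44%. The windows below are shown because they belong to catalytic subunits, to the ubiquitin receptor Psmd4 and to the chaperone Psmd9, whose levels are described further on. Each reads 5′ to 3′ on the gene's strand, with the match in capitals, also where the match lies on the opposite strand. All lie before the annotated start of the gene, and a match describes the letters and is no evidence of binding.

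Psmb5, TGACNNNGC, chr14:54618020-54618056, minus strand: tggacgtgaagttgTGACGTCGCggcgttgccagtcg
Psmb6, TGACNNNGC, chr11:70525334-70525356, plus strand: cggactaaagagagTGACGGAGC
Psmd9, TGACNNNGC, chr5:123228145-123228181, plus strand: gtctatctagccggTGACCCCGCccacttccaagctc
Psmd9, ISRE, chr5:123228017-123228054, plus strand: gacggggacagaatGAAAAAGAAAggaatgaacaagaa
Psmd4, ISRE, chr3:95042671-95042708, minus strand: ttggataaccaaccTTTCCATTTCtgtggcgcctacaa

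Psmd9 was the 1 member of the 41 with both motifs. The other members with TGACNNNGC were Psmc6, Psmd12 and Psme4, and those with the ISRE were Psmb3, Psme1 and Psmg4. As the values below show, genes with a match included members higher in oocytes (Psmd4, Psmd9) and lower in oocytes (Psmb5, Psmc6). Others did not pass the main test in control follicles (Psmb6, Psmd12), though they did on another scale given below.

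Granulosa cell libraries held 16432298 to 22431013 counts and oocyte libraries 14244103 to 18399551. The labels matched the markers: 14 oocyte genes, among them Gdf9, Zp3 and Nlrp5, summed to 16180 to 27280 CPM in oocyte libraries and to 3.09 to 38.0 CPM in granulosa libraries. Sohlh1, also on that list, did not follow, at 0 to 0.194 CPM in oocyte and 0 to 0.525 CPM in granulosa libraries. The sum of 13 granulosa genes, among them Inha, Amh and Fshr, was 17450 to 34160 CPM in granulosa libraries and 60.3 to 2524 CPM in oocyte libraries, highest in control oocyte library 2. That list holds Cyp19a1 and Nr5a2, which every oocyte library had at a sum of 45.7 to 72.5 CPM, and Cyp19a1 alone ranged from 17.6 to 36.8 CPM in oocytes and from 0 to 17.9 CPM in granulosa cells. The other 11 genes summed to 6.5 to 2452 CPM in oocyte libraries. Immune cell markers summed to 703.5 and 1040 CPM in granulosa blebbistatin libraries 1 and 2, and to 1.80 to 12.1 CPM in the other granulosa libraries. The sum of 10 stroma and theca markers, led by Col1a1, Col1a2 and Acta2, was 1551, 401, 1013 and 417 CPM in blebbistatin granulosa libraries 1 to 4, all above the control (22.5 to 385 CPM) and dextran (20.98 to 363 CPM) libraries, with the theca enzyme gene Cyp17a1 at 0 to 0.997 CPM in all libraries. Mitochondrial genes took 6.76% ± 2.39 (SD, n = 4) of the counts in blebbistatin and 3.48% ± 0.868 in control granulosa cells, and blebbistatin library 1 had 14538 genes detected against 18605 to 24297 in the other granulosa libraries. Control oocyte library 4 had the haemoglobin gene Hbb-bs at 41.0 CPM, against at most 0.870 CPM in the other oocytes.

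Proteasome genes took a smaller share of the counts in oocytes than in granulosa cells. The 49 members together made up 1.15% ± 0.0202 (SD, n = 4) of the counts in control, 1.11% ± 0.10 in blebbistatin and 1.12% ± 0.0241 in dextran granulosa cells. In oocytes the shares were 0.881% ± 0.0419, 0.869% ± 0.0375 and 0.842% ± 0.0116. All 12 granulosa libraries (1.02% to 1.22%) lay above all 12 oocyte libraries (0.827% to 0.926%). Since these are bulk libraries scaled to their own totals, a share gives no amount of proteasome RNA per cell.

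Subunits that work in the same particle did not go one way. In control follicles, 14 of 49 members were higher in oocytes and 24 lower at an adjusted p under 0.05 (edgeR quasi-likelihood test), where 77.3% of all 20601 genes passed, 44.4% higher and 32.9% lower. The median log2 difference (oocytes minus granulosa cells) was -0.18 over the members and 0.41 over all genes. In blebbistatin 13 members were higher and 25 lower (all genes 78.9% called, 44.3% higher and 34.6% lower), and in dextran 13 and 26 (all genes 79.4%, 44% and 35.4%), with member medians of -0.24 and -0.41 against 0.36 and 0.34 over all genes. Across the 3 treatments 11 members were higher each time and 24 lower each time, 7 passed in 1 or 2 treatments, 7 passed in none, and 0 changed direction among the calls. Over all genes, 40.3% were higher and 29.4% lower in all 3. The member counts hold Psmb11, which passed the filter on low counts only through oocytes. They also hold Psma8, Psmb8 and Psmb9, which passed it only through granulosa cells. The direction of these calls was thus fixed by the filter.

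The scale of this comparison matters for the smaller differences. By the group means of its factors, the TMM scaling used in the test raised oocyte minus granulosa log2 values relative to a ratio of plain CPM. This shift was 0.349 in control, 0.253 in blebbistatin and 0.273 in dextran. Fitted values of single genes moved by differing amounts. In control Psme1 was at -4.54 under TMM and -4.98 with library totals, and Psmb11 at 10.25 and 10.04. With library totals as the scale, 11 members were higher and 32 lower in control (all genes 40.7% and 37.4%). On this scale 25.6% of the member calls were higher, against 36.8% under TMM. Under DESeq2's own size factors in edgeR, the blebbistatin split was 16 higher and 20 lower (all genes 46.1% and 33.1%). Of these member calls 44.4% were higher, against 34.2% under TMM. With DESeq2 itself the split was 16 and 19 in blebbistatin (45.7% higher) and 18 and 23 in dextran (43.9% against 33.3%). Shares over all genes are not given for DESeq2 itself. Under all 3 scalings and in all 3 treatments, 10 members were higher and 19 lower. The share of all genes that meet this rule was not counted. Psmb11 among the higher, and Psma8, Psmb8 and Psmb9 among the lower, passed the count filter only through the cell type where they are high. The higher genes were Psmb11, Psmc5, Psmd4, Psmd5, Psmd8, Psmd9, Psmd10, Psme3, Psmf1 and Psmg4. The lower genes were Psma3, Psma4, Psma8, Psmb8, Psmb9, Psmb10, Psmc1, Psmc3, Psmc6, Psmd1, Psmd2, Psmd7, Psmd11, Psmd13, Psmd14, Psme1, Psme2, Psme2b and Psmg2. The remaining 20 members depend on the scale or the treatment. Of these, 9 were called in control under TMM. Psma1, Psmb3, Psmb4, Psmb5 and Psme4 kept that control call under the other 2 scalings, Psma5 lost it under DESeq2's size factors (adjusted p = 0.075), and Psma7, Psmb7 and Psmc4 lost it with library totals (adjusted p = 0.58, 0.87 and 0.86). In blebbistatin the calls of Psma1, Psma5, Psmb3, Psmb4 and Psmb5, and in dextran those of Psma5, Psmb2 and Psmb3, were lost under DESeq2's size factors. With library totals the calls of Psmg1 in blebbistatin and of Psma7 and Psmg3 in dextran were lost. Calls were also gained on that scale. In control Psma2, Psma6, Psmb1, Psmb2, Psmb6, Psmc2, Psmd6 and Psmd12 were then called lower in oocytes. Among them Psmb6 was at -0.27 (adjusted p = 0.039) and Psmd12 at -0.24 (adjusted p = 0.047). Calls gained in the other treatments are not listed here.

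**Figure D1:**
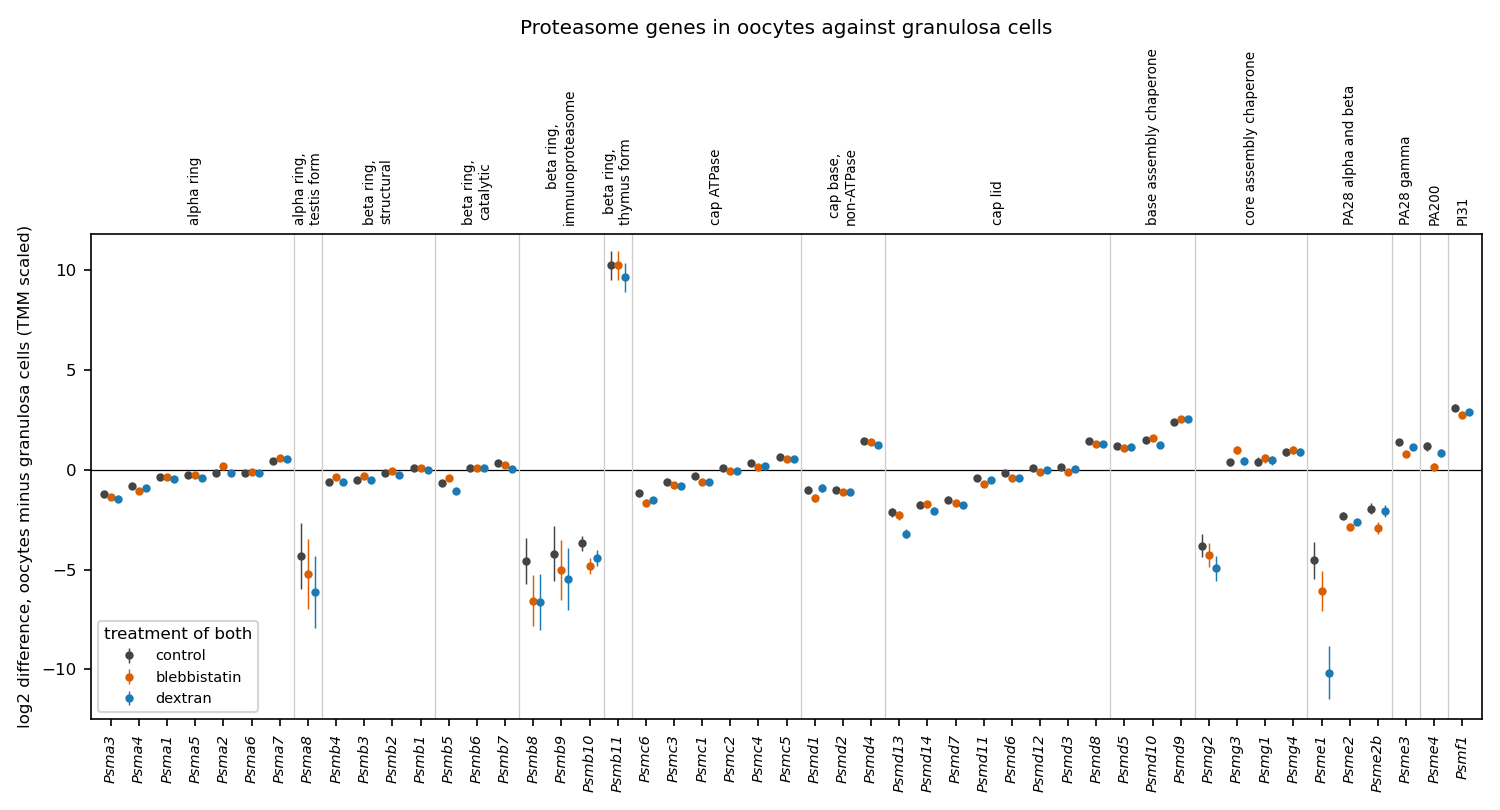
Log2 difference between oocytes and granulosa cells (y axis, edgeR with TMM scaling) for the 49 members, grouped by role along the x axis; the 3 markers per gene stand for control, blebbistatin and dextran, and bars are 1 SE. Base chaperones and Psmf1 lie above 0, immunoproteasome subunits, Psme1, Psme2 and Psmg2 below it, and most core and cap subunits between -2 and 2; the points of Psmb11, with no count in granulosa cells, depend on the prior count.

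The constitutive core, the alpha ring and the beta subunits 1 to 7, leaned towards lower values in oocytes. Of its 14 genes, 2 were higher and 7 lower in control (all genes 44.4% and 32.9%), with a median log2 difference of -0.22. In the alpha ring, which gates the entry to the barrel, Psma1, Psma3, Psma4 and Psma5 were lower and Psma7 higher. Psma3 was at 392, 409, 404 and 393 CPM in the 4 control granulosa libraries and at 131, 145, 117 and 145 CPM in the control oocytes. The groups did not overlap, with every oocyte library far under the lowest granulosa library, and the difference was -1.22 ± 0.11 (log2, SE), adjusted p = 1.7e-09. Psma4 differed by -0.80 ± 0.10 (adjusted p = 5.2e-07). Psma7 differed by 0.42 ± 0.13 (adjusted p = 0.0056), but on plain CPM its control libraries overlapped, with 468 to 555 in granulosa cells and 445 to 640 in oocytes, and with library totals as the scale the call was lost.

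The 3 catalytic subunits behaved differently from each other. Psmb5, the chymotrypsin-like subunit, was at 236, 236, 239 and 224 CPM in control granulosa cells and at 126, 98.7, 133 and 103 CPM in control oocytes, with no overlap and a log2 difference of -0.68 ± 0.14 (adjusted p = 0.00016). In dextran the Psmb5 difference was -1.06 ± 0.14 (adjusted p = 7.2e-07) and in blebbistatin -0.40 ± 0.14 (adjusted p = 0.012), a call that DESeq2's size factors did not keep (adjusted p = 0.12). Psmb6, the caspase-like subunit, did not pass in control (0.07 ± 0.11, adjusted p = 0.55), and Psmb7, the trypsin-like subunit, was at 0.32 ± 0.11 (adjusted p = 0.013). Plain CPM put Psmb7 at 254 to 273 in control granulosa cells and at 242 to 275 in control oocytes, which overlap. With library totals the sign of both Psmb6 and Psmb7 turned negative, and Psmb6 was then called lower (adjusted p = 0.039). Among the structural beta subunits Psmb3 and Psmb4 were lower in oocytes, at -0.49 ± 0.14 and -0.61 ± 0.10, whereas Psmb1 and Psmb2 did not pass in control.

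The immunoproteasome subunits were low in granulosa cells and near 0 in oocytes. Psmb10, which replaces Psmb7, was at 32.3, 30.4, 31.0 and 25.1 CPM in control granulosa cells and at 1.90, 2.28, 0.678 and 2.28 CPM in control oocytes. The ranges did not overlap in any treatment, and the control difference was -3.69 ± 0.38 (adjusted p = 2.0e-08). Over all libraries the mean of Psmb10 was 23.0-fold higher in granulosa cells. Psmb8, which replaces Psmb5, was at 13.7, 7.29, 14.2 and 8.99 CPM in control granulosa cells, and in oocytes 8 of 12 libraries had 0 counts and the highest, control library 2, had 1.20 CPM. Psmb9, which replaces Psmb6, ranged from 0 to 11.9 CPM in granulosa cells and from 0 to 1.25 CPM in oocytes. All 3 were lower in oocytes in each treatment, but a fitted fold against values near 0 depends on the prior count and is no bound. Psmb8 and Psmb9 passed the count filter only through granulosa cells, so their calls are no test of the direction.

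On a per-length scale (CPM per kilobase of the principal protein-coding transcript in GENCODE M21), Psmb10 made up 6.67% to 9.76% of the sum of Psmb7 and Psmb10 in granulosa cells and 0.188% to 0.828% in oocytes. Psmb8 made up 2.53% ± 0.729 (SD, n = 4) of the sum of Psmb5 and Psmb8 in control granulosa cells, 5.37% ± 4.28 in blebbistatin and 1.64% ± 0.482 in dextran, and at most 0.665% in any oocyte library. The blebbistatin mean rested on library 1, at 11.6%, and library 2, at 4.79%, which are also the libraries with the immune cell markers. Blebbistatin library 1 had no Psmb9 count, although its Psmb8 was the highest of all. The part of those cells in the Psmb8 level was not tested.

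The tissue-restricted core subunits went opposite ways. Psmb11, the catalytic subunit of the proteasome of thymic epithelium, had 0 counts in all 12 granulosa libraries, where 3 counts would be 0.150 CPM on average in control. In oocytes it was at 7.48, 10.7, 6.74 and 6.66 CPM in blebbistatin, at 8.62, 6.52, 10.3 and 4.50 CPM in control and at 7.46, 3.86, 3.54 and 5.69 CPM in dextran. Every oocyte library thus had the transcript, and against a floor of 3 counts per library the oocyte mean was at least 49.8-fold higher in control, at least 46.9-fold in blebbistatin and at least 33.6-fold in dextran. It remained a minor species, at 0.857% to 1.64% of the per-length sum of Psmb5, Psmb8 and Psmb11. Psma8, the alpha subunit of the testis proteasome that stands in for Psma7, was at 0 to 12.7 CPM in granulosa cells and at 0 to 0.380 CPM in oocytes, with 9 of 12 oocyte libraries at 0 counts.

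In the cap, the ubiquitin receptor Psmd4 and the deubiquitinase Psmd14 went opposite ways. Psmd2, which also docks ubiquitin and is described below, went the same way as Psmd14. Psmd4, which binds ubiquitin chains, was at 302, 304, 278 and 309.7 CPM in control granulosa cells and at 644.5, 521, 696 and 671 CPM in control oocytes, a log2 difference of 1.43 ± 0.10 (adjusted p = 7.8e-11). Psmd14, which cuts the chains off, was at 304, 289, 297 and 232 CPM in control granulosa cells and at 65.4, 85.1, 49.5 and 59.8 CPM in control oocytes, a difference of -1.75 ± 0.19 (adjusted p = 4.1e-08). Neither gene overlapped between the cell types in any treatment. Psmd7, the partner with which Psmd14 pairs in the lid, went the same way as Psmd14, with 312 to 453 CPM in the 12 granulosa libraries, 80.5 to 142 CPM in the 12 oocyte libraries and a control difference of -1.51 ± 0.17 (adjusted p = 1.4e-07).

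In the lid 1 of 8 genes was higher and 4 were lower in control, or 62.5% called, where 77.3% of all genes were. Psmd13 (ENSMUSG00000025487), a structural lid subunit, had the largest control difference of the lid and base subunits. It was at 163.5, 167, 156 and 159.5 CPM in control granulosa cells and at 30.6, 41.7, 23.0 and 18.5 CPM in control oocytes, with no overlap and a difference of -2.13 ± 0.23 (adjusted p = 4.8e-08). In dextran the Psmd13 difference was -3.20 ± 0.24 (adjusted p = 1.7e-10). Psmd8, the subunit that closes lid assembly, was higher in oocytes, at 261 to 396 CPM against 137 to 222 CPM, with a control difference of 1.45 ± 0.13 (adjusted p = 1.7e-09). Psmd11 was lower by 0.40 ± 0.11 on the log2 scale in control (adjusted p = 0.0038), and Psmd3, Psmd6 and Psmd12 did not pass there.

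In the base, the large scaffold subunits Psmd1 and Psmd2 were both lower in oocytes, at -1.02 ± 0.21 (adjusted p = 0.00019) and -1.01 ± 0.13 (adjusted p = 5.0e-07) in control. Psmd2, which docks ubiquitin and shuttle proteins, ranged from 549 to 681 CPM in granulosa cells and from 197 to 306 CPM in oocytes. Of the 6 ATPases, Psmc4 and Psmc5 were higher and Psmc1, Psmc3 and Psmc6 lower in control. Psmc6 differed most, at -1.18 ± 0.17 (adjusted p = 2.4e-06), whereas Psmc5 differed by 0.63 ± 0.09 (adjusted p = 3.1e-06). The Psmc4 call, 0.32 ± 0.09 (adjusted p = 0.0029), was confined to control among the 3 treatments, and its sign turned with library totals.

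Among the members, 3 are chaperones that build the ATPase ring and leave before the particle is complete, and these were all higher in oocytes. Psmd9 (ENSMUSG00000029440) was at 52.7, 47.2, 42.4 and 49.6 CPM in control granulosa cells and at 209, 143, 238 and 202 CPM in control oocytes, a difference of 2.38 ± 0.14 (adjusted p = 2.3e-12). Psmd10 differed by 1.51 ± 0.13 (adjusted p = 1.2e-09) and Psmd5 by 1.18 ± 0.10 (adjusted p = 2.7e-09). No oocyte library overlapped a granulosa library for any of the 3 in any treatment. Psmd9 is the gene with both promoter motifs shown above. In control, 5 of the 9 base subunits (Psmc1, Psmc3, Psmc6, Psmd1 and Psmd2) were lower, while Psmc4, Psmc5 and Psmd4 were higher, as these chaperones were. Of all genes, 44.4% were higher and 32.9% lower.

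The chaperones of the core work as the pairs Psmg1 with Psmg2 and Psmg3 with Psmg4, and the first of these pairs split. Psmg2 (ENSMUSG00000024537) was at 57.7, 68.1, 57.1 and 49.0 CPM in control granulosa cells and at 2.51, 7.23, 2.03 and 0.660 CPM in control oocytes. In blebbistatin oocytes it was at 4.16, 3.71, 3.56 and 1.32 CPM and in dextran oocytes at 2.11, 1.54, 0.232 and 1.90 CPM. No oocyte library reached a granulosa library, and the control difference was -3.80 ± 0.58 (adjusted p = 5.8e-06). Its partner Psmg1 was at 87.2, 98.8, 80.6 and 82.3 CPM in control granulosa cells and at 96.9, 75.7, 102 and 91.6 CPM in control oocytes. These overlap, and the Psmg1 difference was 0.41 ± 0.23 in control (adjusted p = 0.10), against 0.58 ± 0.23 in blebbistatin (adjusted p = 0.024), where granulosa library 1 was low and the call was lost with library totals (adjusted p = 0.19). Per length, Psmg2 made up 36.5% to 78.4% of the pair in granulosa cells and 0.243% to 8.60% in oocytes. Psmg4 was higher in oocytes by 0.88 ± 0.19 (log2, adjusted p = 0.00034), and Psmg3 was at 0.37 ± 0.19 in control, which did not pass (adjusted p = 0.084, and 0.043 under DESeq2's size factors). Psmg3 did pass with edgeR in blebbistatin (0.98, adjusted p = 0.00011) and in dextran (0.43, adjusted p = 0.047), in the same direction as Psmg4. The dextran call of Psmg3 was lost with library totals.

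**Figure D2:**
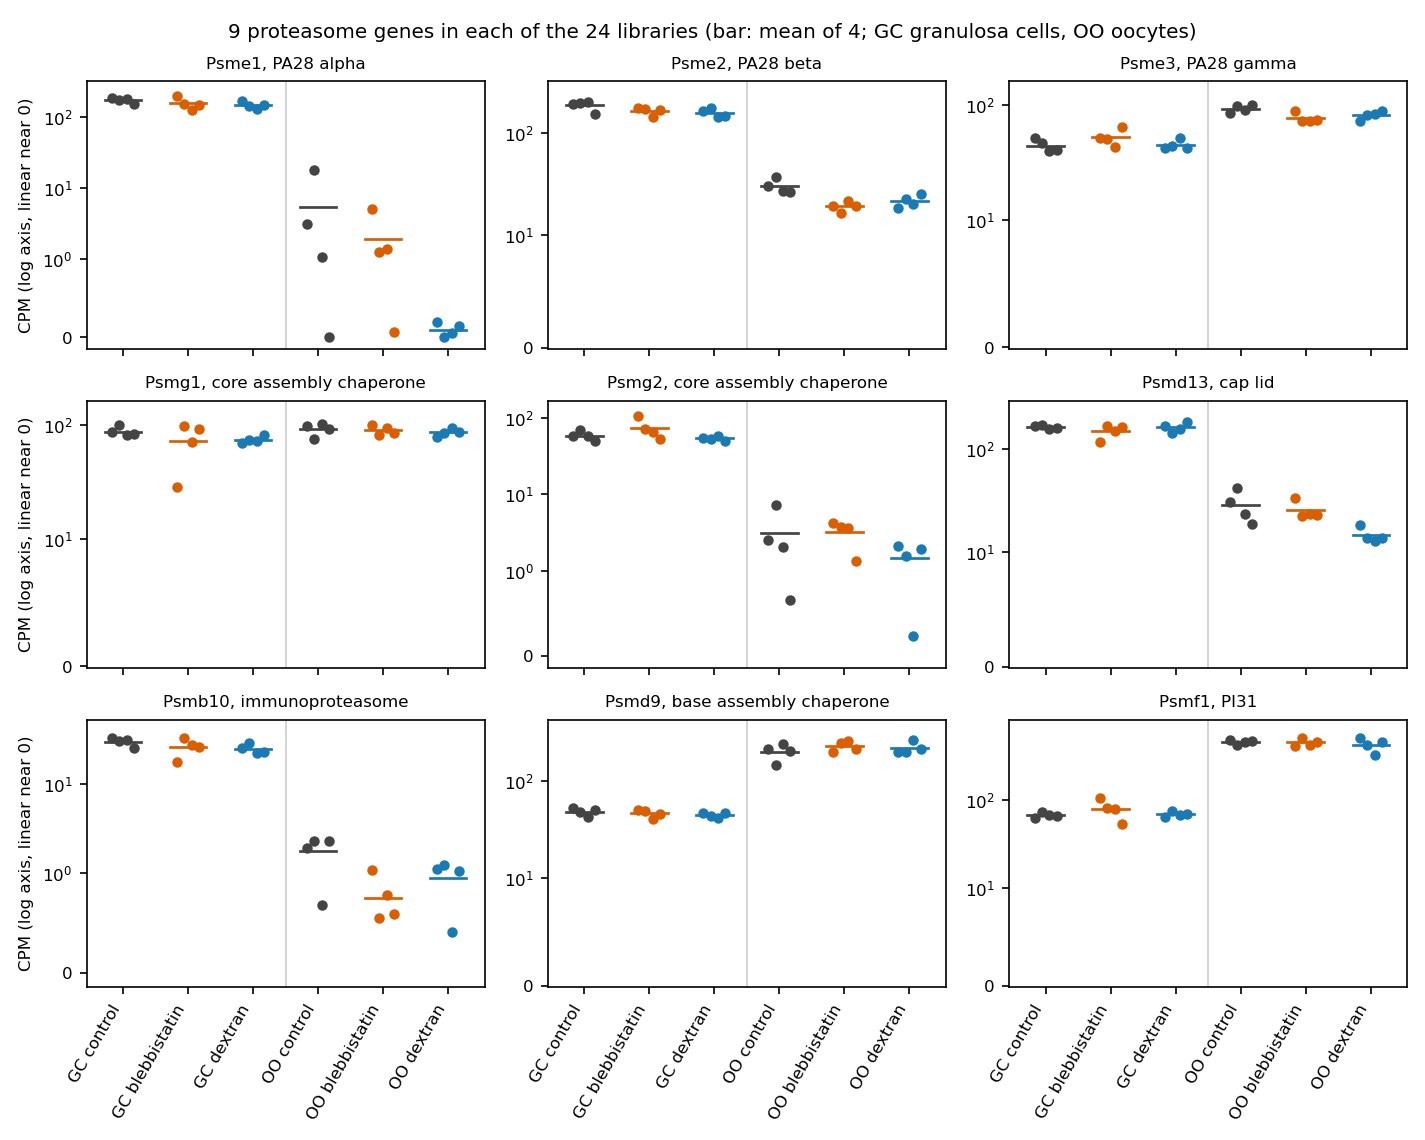
CPM in each of the 24 libraries (y axis, linear near 0 and logarithmic above) for 9 members, by cell type and treatment (x axis); points are libraries and short bars are means of 4. Psme1, Psme2, Psmg2, Psmd13 and Psmb10 are lower in every oocyte library than in every granulosa library, Psmf1 and Psmd9 are higher, and Psmg1 overlaps.

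Among the activators, PA28 alpha and beta were lower and PA28 gamma and PA200 higher in control oocytes. Psme1 (ENSMUSG00000022216), the alpha chain of PA28, was at 184, 172, 179.6 and 152 CPM in control granulosa cells and at 3.06, 17.5, 1.05 and 0 CPM in control oocytes. Blebbistatin oocytes had 4.95, 1.24, 1.36 and 0.0660 CPM of Psme1, and dextran oocytes 0.198, 0, 0.0580 and 0.140 CPM, or 3, 0, 1 and 2 rounded counts. The highest oocyte library was thus far below the lowest granulosa library (125 CPM), and the control difference was -4.54 ± 0.91 (adjusted p = 0.00015), a fitted value that rests on few counts. Over all 12 libraries a cell type, the mean CPM of Psme1 was 63.7-fold higher in granulosa cells, and 143-fold higher without control oocyte library 2, the one with the most granulosa marker RNA.

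Psme2 (ENSMUSG00000079197), the beta chain, was also lower in oocytes, by a smaller factor. It was at 197, 199.7, 203 and 156 CPM in control granulosa cells and at 29.98, 36.8, 27.0 and 26.3 CPM in control oocytes, a difference of -2.29 ± 0.16 (adjusted p = 4.2e-11). Psme2 and its near-identical copy Psme2b share reads, so how their counts were divided is uncertain. Psme2b was at 5.48 to 9.31 CPM in granulosa cells and 0.731 to 2.14 CPM in oocytes. Per length, Psme1 made up 40.8% to 48.5% of Psme1 plus Psme2 in granulosa cells and 0% to 29.2% in oocytes, with a mean of 0.412% ± 0.395 (SD, n = 4) in dextran oocytes.

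Psme3 and Psme4, whose products bind the same ends of the core as PA28 alpha and beta, were higher in control oocytes. Psme3, the nuclear PA28 gamma, was at 51.1, 46.5, 39.3 and 40.0 CPM in control granulosa cells and at 84.3, 97.9, 89.5 and 99.8 CPM in control oocytes, with no overlap and a difference of 1.42 ± 0.14 (adjusted p = 8.9e-09). Psme4, the nuclear activator PA200, was at 53.2, 50.5, 50.4 and 55.2 CPM in control granulosa cells and at 89.3, 88.2, 86.2 and 107.6 CPM in control oocytes, a difference of 1.17 ± 0.20 (adjusted p = 2.9e-05). Psme3 passed in all 3 treatments. Psme4 also passed in dextran (0.85 ± 0.20, adjusted p = 0.00067) but not in blebbistatin (0.13 ± 0.20, adjusted p = 0.55), where its granulosa libraries spread from 50.8 to 122 CPM.

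Put on the per-length scale, the mix of activator transcripts differed between the cell types. Psme1 and Psme2 made up 89.8% to 94.3% of the sum over Psme1, Psme2, Psme3 and Psme4 in the 12 granulosa libraries and 31.7% to 51.7% in the 12 oocyte libraries. Psme3 made up 3.73% to 7.07% in granulosa cells and 35.2% to 48.2% in oocytes, and Psme4 1.97% to 4.70% and 13.0% to 23.3%. None of these 3 pairs of ranges overlapped. The highest PA28 alpha and beta share among oocytes belonged to control library 2, the one with the most granulosa marker RNA.

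**Figure D3:**
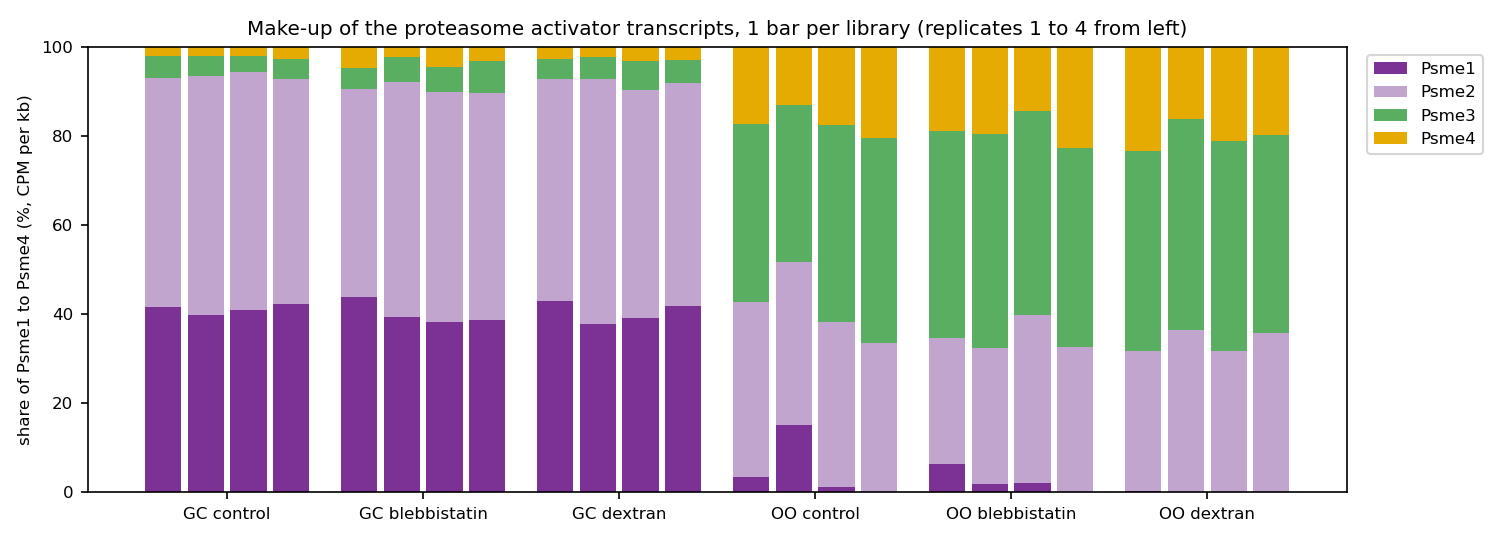
Share (y axis, percent) of Psme1, Psme2, Psme3 and Psme4 in their summed CPM per kilobase, 1 stacked bar per library (x axis, by cell type and treatment). Psme1 and Psme2 fill most of the granulosa bars, from 89.8% to 94.3%, while Psme3 and Psme4 fill most of nearly every oocyte bar.

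Psmf1 (ENSMUSG00000032869), which encodes PI31, a core-binding protein first known as a proteasome inhibitor, had the largest control difference in favour of oocytes among the members detected in both cell types. Psmf1 was at 62.1, 74.3, 68.0 and 66.6 CPM in control granulosa cells and at 483, 428, 464 and 469 CPM in control oocytes. Over all libraries the ranges were 53.5 to 106 CPM and 324 to 515 CPM, which do not overlap. The control difference was 3.11 ± 0.16 (adjusted p = 7.1e-13), and the ratio of mean CPM over the 12 libraries of each type was 6.18.

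The levels of the members lowest in oocytes were set beside the granulosa markers of each oocyte library. Control oocyte library 2 had Inha, the inhibin alpha chain made by granulosa cells, at 1513 CPM or 9.03% of the control granulosa mean, and Psme1 at 10.2%, Psmg2 at 12.5%, Psme2 at 19.5% and Psmd13 at 25.8% of theirs. Control library 1 had Inha at 1.69% and Psme1 at 1.78%, and blebbistatin library 1 had Inha at 1.79% and Psme1 at 3.20%. These 3 libraries had the highest sums of granulosa markers (2524, 603 and 407 CPM) and the highest Psme1 of the oocytes. In the 4 dextran oocyte libraries the marker sum was 60.3 to 146 CPM and Psme1 was at 0 to 0.137% of the dextran granulosa mean, whereas Psme2 stayed at 11.5% to 16.0% and Psmd13 at 7.94% to 11.2%. Inha was at 23.8, 4.57, 0.754 and 39.0 CPM in those 4 libraries, and Cyp19a1 and Nr5a2 made up 45.7 to 66.0 CPM of the marker sums. The part of granulosa RNA in the oocyte levels of these genes was not tested.

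**Figure D4:**
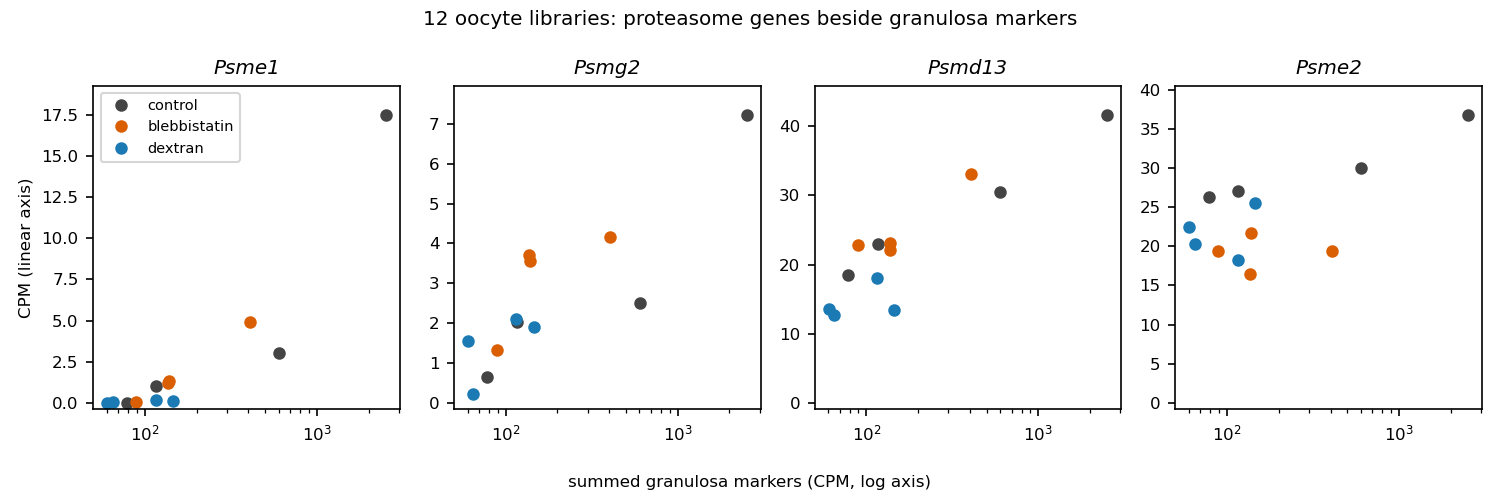
CPM of Psme1, Psmg2, Psmd13 and Psme2 (y axes) against the summed CPM of 13 granulosa markers, Cyp19a1 and Nr5a2 included (x axis, log scale) in the 12 oocyte libraries, coloured by treatment. Control library 2, with a marker sum of 2524 CPM, has the highest value of all 4 genes, and Psme2 stays between 16.5 and 29.98 CPM in the other libraries.

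Genes around the proteasome were described from lists chosen for their roles. Of 5 ubiquitin and E1 genes, 2 were higher in control oocytes and 1 lower, where 44.4% of all genes were higher and 32.9% lower. Ubb, a polyubiquitin gene, was higher by 1.20 ± 0.10 on the log2 scale, whereas Rps27a, which encodes ubiquitin fused to a ribosomal protein, was at -2.10 ± 0.16. Of 17 partners and shuttle factors, 8 were higher and 6 lower, near those shares. Akirin2, which takes proteasomes into the nucleus, was at 157 ± 24.3 CPM (SD, n = 4) in control oocytes and 10.1 ± 2.25 CPM in control granulosa cells, a difference of 4.28 ± 0.25 (adjusted p = 4.1e-12). Rad23b, a shuttle that carries ubiquitin chains to the cap, was at 0.81 ± 0.15 (adjusted p = 6.9e-05). Pomp, the factor that completes the core, was lower by 0.97 ± 0.11 (log2) in oocytes, the same direction as Psmg2.

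Of 11 genes listed around NFE2L1, 4 were higher and 6 lower in control oocytes (90.9% called, against 77.3% of all genes). The list holds genes of the path that activates NFE2L1 and also Nfe2l2, Keap1 and Mafg. Nfe2l1 itself was at -0.53 ± 0.15 (adjusted p = 0.0031), Vcp, the segregase that pulls it from the membrane, at -2.59 ± 0.22, and Ngly1, which strips its sugars, at 1.84 ± 0.19. Of 12 interferon and antigen-processing genes 11 were lower and 1 higher (all genes 32.9% and 44.4%), with a median log2 difference of -4.18. The lower genes included B2m at -2.08 ± 0.22 and Tapbp at -3.36 ± 0.38, and the higher gene was Irf1, at 313 ± 33.1 CPM in control oocytes against 23.2 ± 4.81 CPM in control granulosa cells (4.10 ± 0.20, adjusted p = 2.1e-13). The interferon-regulated members Psmb8, Psmb9, Psmb10, Psme1 and Psme2 were thus lower in the cells with the higher Irf1 level.

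Within granulosa cells, no member passed in any of the 3 treatment comparisons with edgeR. For blebbistatin against control, 0 of 48 members had an adjusted p under 0.05, where 1 of 15370 genes (0.00651%) did, and 3 members were higher and 2 lower at an unadjusted p under 0.05, where 5.36% of all genes were higher and 5.06% lower by that mark. The 3 higher were Psmd1 (0.23 ± 0.07, adjusted p = 0.27), Psme4 (0.68 ± 0.21, adjusted p = 0.27) and Psmc6 (0.27 ± 0.10, adjusted p = 0.35), and the 2 lower were Psmg3 (-0.53 ± 0.20, adjusted p = 0.37) and Psmb4 (-0.24 ± 0.11, adjusted p = 0.45). DESeq2 passed 1 member, Psmd1 (0.25 ± 0.07, adjusted p = 0.013, and 0.013 to 0.58 over all settings), and limma-voom 0. Psmd1 was at 400.0, 416, 402 and 422 CPM in control and at 487, 485, 428.5 and 496 CPM in blebbistatin, with no overlap. The stroma and theca marker sum and the mean mitochondrial share given above were also higher in the blebbistatin group. Without libraries 1 and 3, the highest in stroma markers, 0 members passed, Psmd1 was at 0.29 ± 0.08 (adjusted p = 0.32) and Psmb4 at -0.08 ± 0.09 (adjusted p = 0.78).

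Psme4 showed how much the blebbistatin granulosa libraries differed among themselves. It was at 122, 50.8, 86.4 and 70.6 CPM, with library 2 inside the control range of 50.4 to 55.2 CPM. Without library 2 the difference was 0.88 ± 0.17 and passed (adjusted p = 0.044, and 0.044 to 0.59 over all settings). Without library 1 it was 0.46 ± 0.16 (adjusted p = 0.30), without both 0.64 ± 0.13 (adjusted p = 0.066), and without libraries 1 and 3, which have the highest stroma marker sums, 0.25 ± 0.15 (adjusted p = 0.59). The libraries with the higher stroma sums, 1 and 3, also had the higher Psme4. Psmg1 was at 28.4, 96.7, 70.0 and 91.4 CPM and Psmg2 at 105, 71.1, 65.2 and 53.2 CPM, so library 1 had the lowest Psmg1 and the highest Psmg2. Over members at 10 CPM or more, the median coefficient of variation between libraries was 15.2% in blebbistatin granulosa cells, against 7.26% in control and 5.23% in dextran, and in blebbistatin 5 members exceeded 30% (Psma2, Psmb8, Psme4, Psmg1 and Psmg2). Library 1 is one of the 2 with immune cell markers, and it also had the highest stroma and theca sum (1551 CPM) and the fewest genes detected (14538). The part of these in the results was not tested.

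The constitutive core leaned the same way in this comparison without any gene passing. Of its 14 genes, 13 had a negative difference, with a median of -0.13 (all genes -0.05, and 45.4% of them positive), and 13 of the 20 cap genes had a positive one. The ratio of summed core to summed cap CPM was 0.852, 0.903, 0.926 and 0.807 in control and 0.642, 0.785, 0.773 and 0.824 in blebbistatin, which overlap, with library 1 lowest. Without blebbistatin library 1 the count of negative core genes was 10 of 14 and their median -0.03, and without libraries 1 and 3 the count was 5 of 14 and the median 0.02.

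Dextran moved no proteasome gene in granulosa cells past either mark. None of the 48 members passed (0% of all genes did), and 0 members had an unadjusted p under 0.05, where 3.4% of all genes were past it. The smallest p-values belonged to Psme2 (-0.22 ± 0.11), Psme1 (-0.22 ± 0.13) and Psmb8 (-0.69 ± 0.45), all with overlapping libraries. Psme2 was at 166, 178, 145 and 149 CPM in dextran and at 197, 199.7, 203 and 156 CPM in control. Between blebbistatin and dextran 0 members passed (0% of all genes) and 3 had an unadjusted p under 0.05, all higher in blebbistatin (3.96% of all genes were). They were Psmb8 (1.51 ± 0.46, adjusted p = 0.37), Psmg2 (0.46 ± 0.19) and Psme4 (0.52 ± 0.21, adjusted p = 0.51 for both). Without the 2 blebbistatin libraries that hold immune markers, the Psmb8 difference was 0.57 ± 0.37, and without libraries 1 and 3 Psme4 was at 0.09 ± 0.15 and Psmg2 at 0.23 ± 0.17. DESeq2 and limma-voom passed 0 members in both of these comparisons.

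Within oocytes, too, no member passed in any treatment comparison with edgeR, DESeq2 or limma-voom. For blebbistatin against control 0 of 46 passed (0% of all 16749 genes) and 5 were lower at an unadjusted p under 0.05, where 2.72% of all genes were. Psme2 was at 19.4, 16.5, 21.7 and 19.3 CPM in blebbistatin and at 29.98, 36.8, 27.0 and 26.3 CPM in control, a difference of -0.64 ± 0.17 (unadjusted p = 0.0017, adjusted p = 0.96). These values did not overlap, and without control library 2 the difference was -0.54. The other 4 were Psme2b (-1.04 ± 0.43), Psmb10 (-1.23 ± 0.54), Psme3 (-0.28 ± 0.12) and Psmd11 (-0.28 ± 0.12).

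For dextran against control in oocytes 0 of 46 passed (0% of all genes), and 4 were lower at an unadjusted p under 0.05, where 3.52% of all genes were. Psmd13 was at 18.0, 13.6, 12.8 and 13.5 CPM in dextran and at 30.6, 41.7, 23.0 and 18.5 CPM in control, which do not overlap, a difference of -0.93 ± 0.23 (unadjusted p = 0.0011, adjusted p = 0.86). The other 3 were Psme1 (-5.63 ± 1.64), Psme2 (-0.43 ± 0.17) and Psmb5 (-0.35 ± 0.14). Without control library 2, the one richest in granulosa markers, the Psmd13 difference was -0.70 and the Psme1 difference -3.66. Granulosa markers were lower in the dextran oocytes than in control libraries 1 and 2, as given above, and their part was not tested. Between blebbistatin and dextran oocytes 0 passed (0% of all genes) and 4 had an unadjusted p under 0.05 (1.78% of all genes higher and 2.29% lower), with Psmb5 (0.50 ± 0.14), Psmd13 (0.77 ± 0.23) and Psme1 (4.14 ± 1.61) higher and Psmd11 (-0.27 ± 0.12) lower in blebbistatin.

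**Figure D5:**
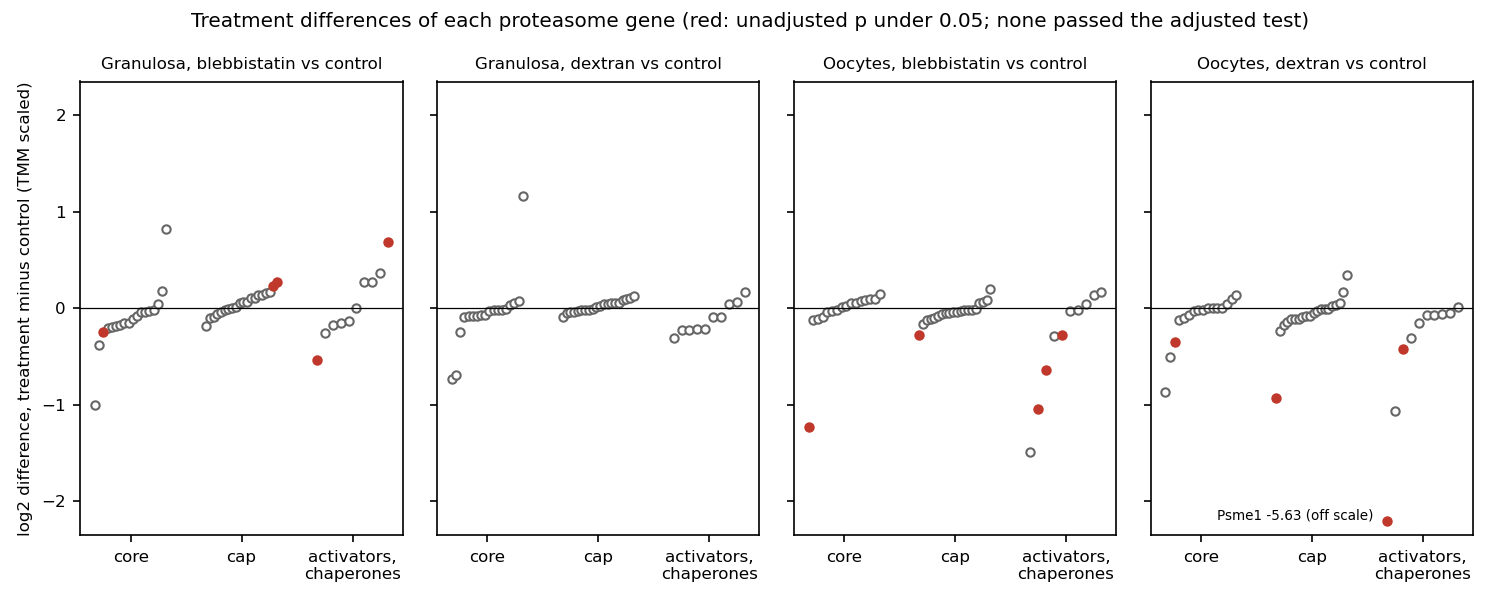
Log2 difference from control (y axis, edgeR) of each tested member under blebbistatin and dextran, in granulosa cells and in oocytes, by class (x axis: core, cap, activators and chaperones); red points have an unadjusted p under 0.05, and none passed after adjustment. Most points lie within 0.5 of 0, and Psme1 in dextran oocytes, at -5.63, is marked off the scale.

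Whether the 2 cell types differ in their response was tested as the oocyte response minus the granulosa response in 1 fit of all 24 libraries. For blebbistatin 0 of 49 members passed with edgeR, DESeq2 or limma-voom (10 of 20601 genes did with edgeR, 0.0485%), and 1 was higher and 6 lower at an unadjusted p under 0.05 (all genes 3.8% and 7.48%). Psme4 was at -1.04 ± 0.28 (adjusted p = 0.20), with opposite signs of 0.68 in granulosa cells and -0.29 in oocytes, and Psme3 at -0.62 ± 0.19 (adjusted p = 0.24). Without granulosa blebbistatin library 2 the Psme4 value was -1.22 ± 0.25 and passed (adjusted p = 0.025, and 0.025 to 0.65 over all settings), and without granulosa blebbistatin libraries 1 and 3 it was -0.37 ± 0.23 (adjusted p = 0.65). For dextran 0 of 49 passed with the 3 tools (0% of all genes), and 2 were lower at an unadjusted p under 0.05 (7.76% of all genes were), namely Psme1 (-5.65 ± 1.56, adjusted p = 0.27) and Psmd13 (-1.07 ± 0.31, adjusted p = 0.28). Without control oocyte library 4, which had no Psme1 count, both passed (-6.07 ± 1.26, adjusted p = 0.045, and -1.26 ± 0.28, adjusted p = 0.049, with adjusted p up to 0.98 and 0.85 over all settings), and without control oocyte library 2 the values were -3.39 and -0.65 (adjusted p = 0.84 for both). In no treatment comparison did a gene of the ubiquitin, partner, NFE2L1 or interferon lists pass.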

How the data were processed

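RNA of 12 granulosa cell and 12 oocyte libraries was sequenced. Per the labels, the deposited tables hold salmon gene counts, which are estimated counts made by the authors; build GRCm39 is named per the submitters' processing notes, and how strand was used and which annotation served is not given in the sources used here. Those counts were rounded and tested, without further scaling by the authors, in R 4.3.3 with edgeR 4.0.16 (filterByExpr, TMM, robust quasi-likelihood test, Benjamini-Hochberg over all genes, threshold 0.05). Treatments were compared within each table, and cell types and responses in 1 fit of both tables. Levels are CPM of the library total; log2 differences come from the fit. DESeq2 1.42.0, limma 3.58.1 (voom), other scalings, no filter, a replicate term and leaving out each library were alternatives. The test script was tested on simulated data. Members and lists were chosen with earlier results of these data known. Some genes of the lists are not reported here and were left out of the list counts. Named genes were up to 8 members per direction with the smallest adjusted p, the 3 smallest unadjusted p where fewer than 3 passed, and members fixed for their role. No 2 libraries agreed within counting noise. Depth sets the floor: 3 counts are about 0.15 CPM.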

Additional observations from a re-analysis of the deposited data

Results flagged for a closer look

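For 32 named members, in 16 of 189 sets of 4 libraries (a member in a group), the highest or lowest library stood far from the other 3, by a rule that chance meets in about 1 in 20 sets. Where the other 3 libraries were at 0, any count meets this rule, so the 1 in 20 does not hold there. Such sets of Psmb8, Psmb9 and Psma8 in oocytes are among the 16, which are therefore no measure of an excess over chance. In granulosa cells these were Psme2 in control library 4 at 156 CPM (others 197 to 203) and Psmd1 in blebbistatin library 3 at 428.5 CPM (others 485 to 496). In control oocytes, library 2 had Psmb8 at 1.20, Psmb9 at 1.25 and Psma8 at 0.380 CPM, against at most 0.123 CPM in the others, and library 4 had Psme4 at 107.6 CPM (others 86.2 to 89.3). In blebbistatin oocytes, library 3 had Psmb6 at 403 CPM (others 342 to 352) and Psmb8 at 0.648 CPM (others 0). Blebbistatin oocyte library 1 had Psme3 at 88.0 CPM (others 72.5 to 73.1), Psmd13 at 33.1 CPM (others 22.1 to 23.2) and Psma8 at 0.241 CPM (others 0). In dextran oocytes, library 4 had Psmb8 at 0.211, Psmb9 at 0.351 and Psma8 at 0.281 CPM (others 0), library 2 had Psme4 at 67.5 CPM (others 90.6 to 94.99) and library 1 had Psmd13 at 18.0 CPM (others 12.8 to 13.6).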

How the results depend on the processing

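The counts of members that differed between cell types kept within 1.5 times of their values under every alternative run. In the main fit 77.3%, 78.9% and 79.4% of all genes were called in control, blebbistatin and dextran. Shares over all genes under the alternatives are not given here, so the counts below show no trait particular to the members. Leaving out each library in turn gave 35 to 43 in control, 35 to 41 in blebbistatin, 38 to 41 in dextran, 0 to 1 for blebbistatin against control in granulosa cells (Psme4, without blebbistatin library 2), 0 to 1 for the blebbistatin response difference (Psme4, without the same library), 0 to 2 for the dextran response difference (Psme1 and Psmd13, without control oocyte library 4) and 0 elsewhere. DESeq2 gave 1 for blebbistatin against control in granulosa cells, and the cause was not tested. Without granulosa blebbistatin libraries 1 and 2 (immune markers) and control oocyte library 2 (granulosa markers), a setting chosen after seeing the data, 41 members differed in control (16 higher, 25 lower), 36 in blebbistatin (15 and 21) and 40 in dextran (15 and 25), and 0 elsewhere. Without granulosa blebbistatin libraries 1 and 3, the highest in stroma markers and also chosen after seeing the data, the counts were 41 (15 and 26), 36 (13 and 23) and 40 (15 and 25), and 0 in the other comparisons refitted. Stroma markers remain in other granulosa libraries under both. Single genes were followed under the alternatives only where they had the smallest p-values of a comparison and direction. Of their values, 2206 kept their direction and side of the threshold, 5 newly passed and 0 reversed. For cell types that choice favours stable genes, so these counts do not cover members nearer the threshold. With library totals the control difference turned from 0.32 to -0.021 for Psmb7 and from 0.32 to -0.019 for Psmc4, and other lost calls are given above. Correlations between libraries with the same replicate number ran from -0.203 to 0.401, and in 0 of 9 comparisons were all of them over 0.1. In 16 of 36 checks a library correlated best with its own number among 4 candidates, where chance gives about 1 in 4. Whether some of these libraries were paired is thus not settled. With the replicate number as a block, 38, 36 and 38 members differed between cell types in control, blebbistatin and dextran, and 0 elsewhere. Depth limits Psma8, Psmb8, Psmb9 and Psme1 in oocytes, where many libraries hold a few counts or none.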
